A study of Homo sapiens with 2 samples.

Results

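The genes described here are 60 autosomal genes of histone lysine methylation, a listed set of 20 demethylases and of 40 methyltransferases and subunits of their complexes, among 19122 autosomal protein-coding genes with a RefSeq transcript. They were examined for occupancy by PHF8, itself a histone lysine demethylase, in RKO cells, an established human colon carcinoma line. A vector library came from RKO cells transfected with the empty vector, and an APOC2 library from RKO cells transfected with an overexpression plasmid for APOC2, the apolipoprotein that activates lipoprotein lipase. PHF8 was immunoprecipitated with the same antibody in both, and the DNA was sequenced (ChIP-seq), with 1 library for each condition. A gene was counted as occupied when a peak had its midpoint no more than 1 kb from the gene's annotated start or end, here called its boundaries. The peak tables hold no expression values, so neither the identity of the line nor the level of APOC2 could be checked in them, and no transfection control other than the vector was analysed here.

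Lysines of the histone tails carry methyl groups that are written by SET-domain methyltransferases (and, for H3K79, by DOT1L) and erased by a pair of enzyme families, the flavin-dependent KDM1 amine oxidases and the JmjC dioxygenases. H3K4 methylation marks active promoters, H3K36 methylation transcribed gene bodies, H3K9 and H3K27 methylation silent chromatin, and H4K20 methylation chromatin compaction and the cell cycle. PHF8 is a JmjC enzyme whose PHD finger binds trimethylated H3K4 at promoters and whose catalytic domain removes methyl groups from H3K9, H3K27 and H4K20. Members were grouped by the residue each is best known for, which simplifies: KDM4A, KDM4B and KDM4C also act on H3K36, KDM7A also on H3K27, SETD3 methylates actin, and a histone activity of JMJD6, RIOX2, KMT2E, SETD5 and PRDM10 is disputed or not established.

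The 150 bases before the annotated start are shown for 8 members, to set promoters with a peak in both libraries (KDM4A, RBBP5, PHF2), with a peak in the APOC2 library alone (SMYD2, KDM1B) and with no boundary peak (KDM2A, KMT5B, SETDB1) side by side. Sequences are from RefSeq (GRCh38.p14), 5′ to 3′ on the strand of the gene, and capitals mark CpG dinucleotides.
KDM4A (chr1:43649999-43650148, + strand): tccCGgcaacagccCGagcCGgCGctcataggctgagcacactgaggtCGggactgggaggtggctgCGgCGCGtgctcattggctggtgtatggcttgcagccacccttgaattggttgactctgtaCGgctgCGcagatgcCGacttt
RBBP5 (chr1:205121979-205122128, - strand): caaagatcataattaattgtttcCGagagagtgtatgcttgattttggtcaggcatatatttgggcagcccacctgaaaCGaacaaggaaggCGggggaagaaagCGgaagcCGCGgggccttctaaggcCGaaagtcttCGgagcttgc
PHF2 (chr9:93576434-93576583, + strand): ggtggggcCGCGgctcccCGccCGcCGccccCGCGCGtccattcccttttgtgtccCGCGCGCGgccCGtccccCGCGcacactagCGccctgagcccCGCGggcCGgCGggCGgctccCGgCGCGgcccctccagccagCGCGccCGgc
SMYD2 (chr1:214281009-214281158, + strand): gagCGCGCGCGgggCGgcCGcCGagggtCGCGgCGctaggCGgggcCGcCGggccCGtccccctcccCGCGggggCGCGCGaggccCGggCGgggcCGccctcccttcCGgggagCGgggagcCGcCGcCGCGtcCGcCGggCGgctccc
KDM1B (chr6:18155272-18155421, + strand): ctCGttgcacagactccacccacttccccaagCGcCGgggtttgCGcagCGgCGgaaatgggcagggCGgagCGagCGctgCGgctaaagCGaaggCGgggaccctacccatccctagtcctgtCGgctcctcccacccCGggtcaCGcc
KDM2A (chr11:67119113-67119262, + strand): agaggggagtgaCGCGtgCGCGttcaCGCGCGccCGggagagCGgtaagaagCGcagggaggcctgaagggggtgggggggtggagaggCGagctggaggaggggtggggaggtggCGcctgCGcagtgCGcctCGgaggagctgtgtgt
KMT5B (chr11:68213649-68213798, - strand): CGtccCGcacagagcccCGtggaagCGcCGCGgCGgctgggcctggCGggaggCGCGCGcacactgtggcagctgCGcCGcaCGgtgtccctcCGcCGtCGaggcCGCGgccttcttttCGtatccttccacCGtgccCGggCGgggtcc
SETDB1 (chr1:150926113-150926262, + strand): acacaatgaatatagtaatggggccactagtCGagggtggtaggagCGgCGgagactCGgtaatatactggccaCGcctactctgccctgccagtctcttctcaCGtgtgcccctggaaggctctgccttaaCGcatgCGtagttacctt
Within these 150 bases SMYD2 had 31 CpGs, PHF2 27, KMT5B 23, KDM1B and KDM2A 15 each, KDM4A 11, and RBBP5 and SETDB1 8 each. Promoters dense and sparse in CpG thus stood among the members with a peak and among those without. The bases shown are mostly not those under the peaks. The peaks of KDM4A, SMYD2 and KDM1B lay wholly after the start, and those of RBBP5 mostly after it.

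In the vector library 9 of the 60 members (15.0%) had a boundary peak, and in the APOC2 library 23 of 60 (38.3%) did. All 9 vector members were among the 23, so 14 members were occupied with APOC2 and not with vector, 0 the other way round, and 37 (61.7%) in neither. Over all autosomal protein-coding genes the shares were 6.19% in the vector library, 24.7% in the APOC2 library, 6.08% in both, 18.6% with APOC2 and not with vector, and 0.110% with vector and not with APOC2. The members' shares stood above those of all genes in both libraries, and members and all genes alike had more peaks with APOC2. Among genes whose promoter had an observed-to-expected CpG ratio of at least 0.6, 8.07% had a boundary peak in the vector library and 35.0% in the APOC2 library. Of the 49 members with such a promoter, 8 (16.3%) and 21 (42.9%) did. With the same number of top-ranked peaks from each table, 4015, the APOC2 count of members was 13 and the vector count stayed at 9. Then 7 members had a peak in the APOC2 library alone, and CXXC1, KDM4B and KDM5A had one in the vector library alone. No share of all genes was taken at equal peak numbers, so these counts do not compare members with all genes. With 1 library per condition, none of these counts can be set against replicate variation.

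The median fold enrichment of the highest boundary peak was 5.05 over the 9 occupied members in the vector library, and 5.18 over all occupied genes. In the APOC2 library it was 5.08 over the 23 occupied members, and 5.42 over all occupied genes. Member peaks were thus of ordinary height for boundary peaks in these tables.

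**Figure D1:**
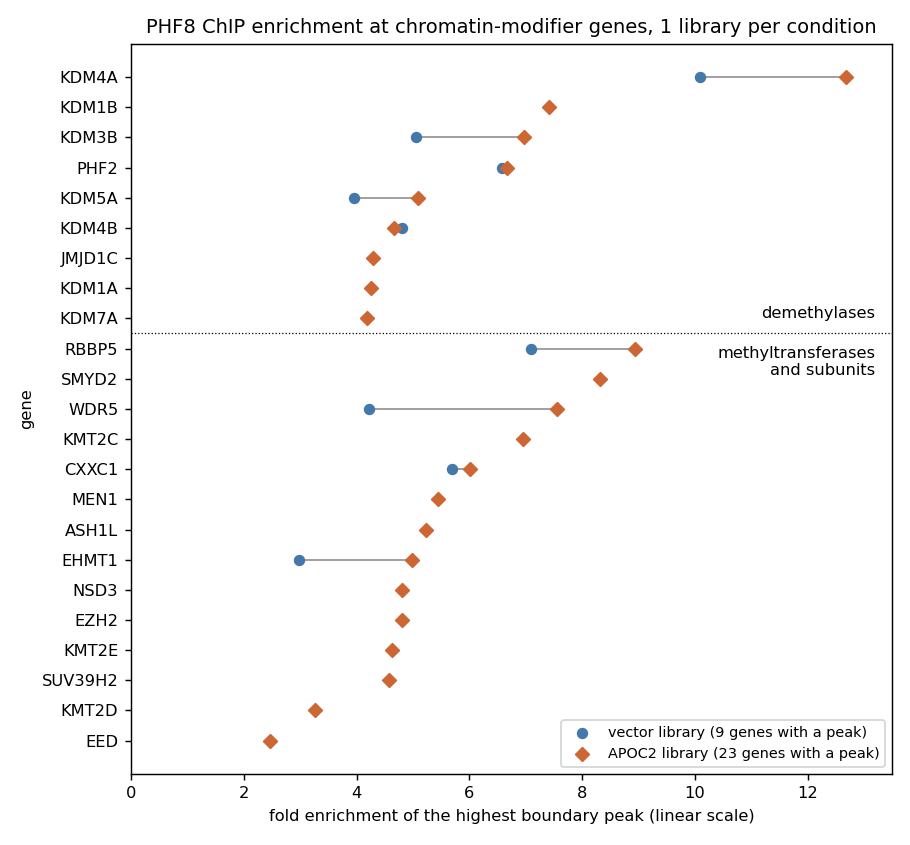
Fold enrichment (horizontal axis, linear) of the highest boundary peak of each of the 23 occupied members, in the vector (circles) and APOC2 (diamonds) libraries; a grey line joins the values of a gene with a peak in both. KDM4A stands highest in both libraries, at 10.1 and 12.7, and KDM4B alone lies lower in the APOC2 library. For CXXC1 the joined values belong to different peaks, at the end and the start of the gene.

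Demethylases were taken first. Of the 20 demethylases, 5 (25.0%) had a boundary peak in the vector library and 9 (45.0%) in the APOC2 library. The shares were 6.19% and 24.7% over all genes, and 8.07% and 35.0% over genes with a CpG-rich promoter. Of the 5 with vector, PHF2 is on chromosome 9, which is taken up below. The highest member in both tables was KDM4A, which removes trimethylation from H3K9 and H3K36. Its fold enrichment was 10.1 in the vector library (chromosome 1, 43650485 to 43650759) and 12.7 in the APOC2 library (43650461 to 43650957), at percentiles 96.9 and 98.3 of the boundary peaks of protein-coding genes in the respective tables. The peak lay inside the gene, with its midpoint 473 bp and 560 bp after the start.

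KDM3B, an eraser of H3K9 mono- and dimethylation, had 5.05 in the vector library (chromosome 5, 138352708 to 138353126) and 6.97 in the APOC2 library (138352718 to 138353148). Its pileup was the highest of the shared members, at 50.5 and, after depth scaling, 76.8 fragments. PHF2, the autosomal relative of PHF8 in the same JmjC subfamily, had 6.58 (chromosome 9, 93576139 to 93576602) and 6.66 (93576185 to 93576579). Unlike most members its peak lay before the start, with midpoints at -214 and -202 bp, over nearly all of the CpG-dense stretch printed above. The fold enrichment at PHF2 was nearly equal in both libraries.

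KDM4B, another H3K9 and H3K36 eraser, had 4.81 in the vector library (chromosome 19, 4969144 to 4969404) and 4.67 in the APOC2 library (4969104 to 4969400). Among the members with peaks in both tables, it was the only one lower with APOC2. KDM5A, which removes H3K4 trimethylation, had 3.96 (chromosome 12, 389026 to 389496) and 5.08 (388497 to 389605). The KDM5A peak covered the start in both tables and was 471 bp long in the vector and 1109 bp long in the APOC2 table; boundaries of CCDC77 and of LOC105369594 lay within 1 kb of it as well.

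The demethylases with a peak in the APOC2 library alone were KDM1B, JMJD1C, KDM1A and KDM7A. KDM1B, the flavin-dependent H3K4 eraser needed in oocytes to set imprints, had the highest fold enrichment of them, 7.42 (chromosome 6, 18155427 to 18155720), beside the neighbouring gene TPMT. Its paralogue KDM1A (LSD1), the H3K4 eraser of the CoREST complex, had 4.25 (chromosome 1, 23019453 to 23019821). JMJD1C, of the KDM3 family, had 4.29 (chromosome 10, 63521418 to 63521765), between its start and that of REEP3. KDM7A, the third member of the PHF8 and PHF2 subfamily, had 3 APOC2 peaks in a row, at midpoints of -372, 120 and 1263 bp from its start, with fold enrichments of 3.52, 4.18 and 3.06. The nearest vector midpoint to a boundary of these genes was 221361 bp away at KDM7A, 1579335 bp at KDM1A, and farther at KDM1B and JMJD1C.

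The other 11 demethylases had no boundary peak in either library. They were KDM2A, KDM2B, KDM8 and RIOX1 of the H3K36 group, KDM3A, KDM4C and KDM4D of the H3K9 group, KDM5B, the H3K27 eraser KDM6B, and JMJD6 and RIOX2. Paralogues therefore differed: KDM3B was occupied and KDM3A was not, KDM4A and KDM4B were and KDM4C and KDM4D were not, and KDM5A was and KDM5B was not.

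Of the 40 methyltransferases and subunits, 4 (10.0%) had a boundary peak in the vector library and 14 (35.0%) in the APOC2 library. Among the 31 enzymes, 1 (3.23%) was occupied in the vector library and 9 (29.0%) in the APOC2 library, beside 6.19% and 24.7% of all genes and 8.07% and 35.0% of CpG-rich genes. The enzymes were thus near the background. Among the 9 non-catalytic subunits, 3 (33.3%) and 5 (55.6%) were occupied, and the 3 were WDR5, RBBP5 and CXXC1. The groups are small and were not tested against each other.

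The H3K4 writers share a core of WDR5, RBBP5, ASH2L and DPY30 that activates the KMT2A to KMT2D and SETD1 enzymes. RBBP5 had the highest fold enrichment of the methyltransferase side in both libraries, 7.09 in the vector (chromosome 1, 205121745 to 205122010) and 8.93 in the APOC2 library (205121731 to 205122023), with the start of the gene inside the peak. At WDR5, which reads the H3K4 tail, the vector table listed separate peaks of 4.22 (chromosome 9, 134135456 to 134135914) and 6.07 (134136120 to 134136358), the latter with its midpoint 1040 bp after the start and so just outside the window. The APOC2 table listed 1 peak of 7.55 over both (134135395 to 134136491). CXXC1, the CpG-binding subunit of the SETD1 complexes, had a peak of 5.69 at its end in the vector library (chromosome 18, 50281245 to 50281469) and 5.77 there in the APOC2 library (50281238 to 50281471), where a boundary of MBD1 also lay. The vector midpoint was 990 bp beyond the end, so the vector call of CXXC1 rests on the edge of the window. A peak at the CXXC1 start, of 6.004 (50287430 to 50287649), was listed in the APOC2 table alone.

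MEN1, which encodes menin, the subunit of the KMT2A and KMT2B complexes, had a peak in the APOC2 library alone, of 5.44 (chromosome 11, 64810335 to 64810584). Its midpoint was 835 bp after the outermost annotated start and 92 bp from another listed transcript start. ASH2L and DPY30 had none, nor did HCFC2. DPY30 missed the 1 kb window narrowly, with the nearest APOC2 midpoint at 1199 bp. Among the H3K4 enzymes, KMT2C had APOC2 peaks at midpoints of -404 and 154 bp from its start, with fold enrichments of 6.96 (chromosome 7, 152436297 to 152436517) and 3.003 (152435736 to 152435962). KMT2D had weak APOC2 peaks at its start, of 2.47, and at its end, of 3.26, where PRKAG1 and DDN-AS1 also have a boundary. KMT2A, KMT2B, SETD1A, SETD1B, SETD7 and SMYD3 had no boundary peak, and neither had SETD5 or SETD3. KMT2E, a KMT2 relative placed here without a residue, had a small APOC2 peak of 4.62 with a pileup of 11.

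Of the H3K9 writers, EHMT1 (GLP) had 2.97 in the vector library (chromosome 9, 137618363 to 137618827) and 4.98 in the APOC2 library (137618406 to 137618862), before its start and beside ARRDC1-AS1. SUV39H2 had a pair of APOC2 peaks around its start, of 4.46 and 4.57. SETDB1, SETDB2, PRDM2 and EHMT2 (G9a), the partner of EHMT1, had no boundary peak. Of the Polycomb repressive complex that writes H3K27 methylation, the catalytic EZH2 had an APOC2 peak of 4.796 (chromosome 7, 148884462 to 148884780) and the scaffold EED a peak of 2.46 (chromosome 11, 86244920 to 86245353), the lowest of all occupied members. EZH1 and SUZ12 had none.

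Of the H3K36 writers, SMYD2, which also methylates p53, had 8.31 in the APOC2 library (chromosome 1, 214281200 to 214281634), the highest of the members with a peak in that library alone. ASH1L had 5.23 (chromosome 1, 155562526 to 155562783), and NSD3 had 4.81 and 3.77 at its opposite ends, beside PLPP5 and LETM2. NSD1 and NSD2 had no boundary peak. SETD2, which writes H3K36 trimethylation behind RNA polymerase, fell outside the rule, because its peaks had midpoints 1328 bp (vector) and 1337 bp (APOC2) from the annotated start. The fold enrichment at SETD2 was 5.21 in the vector library (chromosome 3, 47163255 to 47163770) and 7.84 in the APOC2 library (47163219 to 47163787). The H4K20 writers KMT5A, KMT5B and KMT5C had no boundary peak in either library, and neither had DOT1L, SMYD5 or PRDM10.

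The 37 members without a boundary peak were mostly far from any peak. The median distance from a boundary to the nearest midpoint was 623 kb in the vector table, where 35 of the 37 were over 10 kb away, and 62.3 kb in the larger APOC2 table, where 28 were. The members just outside the 1 kb rule were DPY30 and SETD2. The farthest inside it were the peaks of both libraries at the end of CXXC1, with the vector midpoint 990 bp from the end and the APOC2 midpoint slightly farther. MEN1 followed at 835 bp in the APOC2 table.

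By residue, the H3K9 group had the largest share occupied, with 5 of 15 genes (33.3%) with vector and 8 of 15 (53.3%) with APOC2. The shares were 6.19% and 24.7% over all genes, and 8.07% and 35.0% over genes with a CpG-rich promoter. Of the 5 with vector, PHF2 and EHMT1 are on chromosome 9, which is taken up below. In the H3K4 group 4 and 9 of 19 genes were occupied. The H3K27 group had 0 and 2 of 5, the H3K36 group 0 and 3 of 10, the H4K20 group 0 and 0 of 3, and the members without a clear residue 0 and 1 of 8. All 9 members with a vector peak therefore belonged to the H3K4 and H3K9 groups. Within the H3K9 group 6 of 9 erasers and 2 of 6 writers were occupied in the APOC2 library, and within the H3K36 group 0 of 4 erasers and 3 of 6 writers. The H3K36 erasers so counted leave out KDM4A, KDM4B and KDM4C, which also act on H3K36 but were placed in the H3K9 group. KDM4A and KDM4B had a boundary peak in both libraries and KDM4C in neither. The group counts are of few genes in 1 library each, and the differences between groups were not tested.

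**Figure D2:**
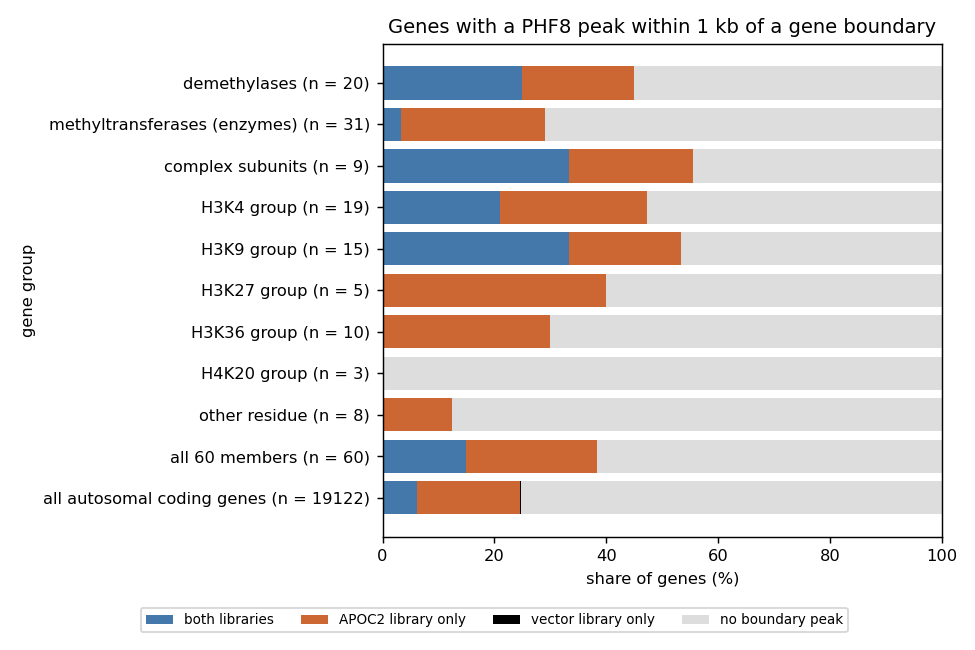
Share of genes (horizontal axis, %) with a boundary peak in both libraries, in the APOC2 library alone, in the vector library alone or in neither, by class and by residue. The bottom bar gives all 19122 autosomal protein-coding genes, of which 24.7% had an APOC2 peak, against 38.3% of the 60 members.

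Chromosomes 8 and 9 touch these counts. They hold 6 members, of which 3 (PHF2, WDR5 and EHMT1, all on chromosome 9) had a vector peak and 4 an APOC2 peak. Over all protein-coding genes of chromosomes 8 and 9, 23.8% had a vector peak and 40.0% an APOC2 peak. Among the 54 members on other autosomes 6 (11.1%) had a vector peak and 19 (35.2%) an APOC2 peak. Over all autosomal protein-coding genes, chromosomes 8 and 9 included, the shares were 6.19% and 24.7%. The share of all genes on the other autosomes was not taken separately.

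To compare signal at sites present in both tables, the highest boundary peaks of a gene were paired where they overlapped, which gave 8 members. Fold enrichment in APOC2 divided by that in vector had a median of 0.35 on the log2 scale over these 8, and 7 of the 8 ratios were above 0. Over the 1100 autosomal protein-coding genes paired the same way the median was 0.52, and 89.9% of the ratios were above 0. Depth-scaled pileup puts both libraries on 1 scale if they share a control, which is not given in the sources used here. On that scale the medians were 0.43 and 0.57. The ratios of the 8 members ran from -0.042 to 0.84 for fold enrichment and from -0.011 to 0.99 for depth-scaled pileup. These ranges held the medians of all genes, and the difference between the medians was not tested.

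The largest ratio of depth-scaled pileup was at WDR5, with 29.7 fragments with vector and 58.8 with APOC2, a ratio of 1.98 (95% interval 1.23 to 3.23). At KDM3B the ratio was 1.52 (1.04 to 2.24). The counting intervals lay above 1 at WDR5 and KDM3B and held 1 at the other 6 pairs, given the inferred scaling, whose own error they do not cover. On the log2 scale the intervals of WDR5 and KDM3B also held the median of all paired genes, 0.57. EHMT1 had 22.8 and 39.6 fragments, a ratio of 1.74 (0.992 to 3.10), KDM4A 1.40 (0.850 to 2.33) and RBBP5 1.30 (0.745 to 2.29). KDM5A, PHF2 and KDM4B had ratios of 1.11, 1.08 and 0.993, with intervals that reached from 0.574 at KDM4B to 2.09 at KDM5A. Changes inside these intervals were not detectable at these pileups. Against the stronger vector peak at WDR5, outside the window, the log2 ratio of depth-scaled pileup was 0.81 in place of 0.99. The log2 ratio of fold enrichment was 0.31 in place of 0.84. The overlapping peaks at the end of CXXC1 had log2 ratios of 0.02 for fold enrichment and 0.40 for depth-scaled pileup. Those inside SETD2 had 0.59 and 0.78.

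**Figure D3:**
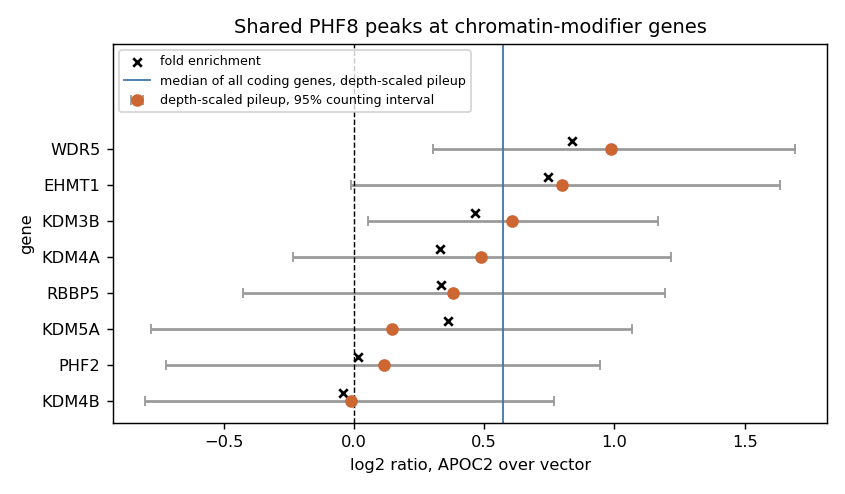
Log2 ratio of APOC2 over vector (horizontal axis) at the 8 members with overlapping boundary peaks: filled points give depth-scaled pileup with 95% counting intervals (scaling inferred, not covered by them), crosses fold enrichment. The vertical blue line marks the median of all paired protein-coding genes, 0.57, and the intervals of WDR5 and KDM3B lie above 0 and hold that median.

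The 14 members with a peak in the APOC2 library alone had a median fold enrichment of 4.71 there (range 2.46 to 8.31), against 6.66 (4.67 to 12.7) for the 9 members with a peak in both. Over all genes these medians were 5.004 and 7.23. The median pileup of these member sets was 31.5 and 29 fragments, over a median local background of 5.999 and 3.33. Over all genes the pileup went the other way, with 27 fragments for genes in the APOC2 table alone and 36 for genes in both, over backgrounds of 4.54 and 4.16. As a guide to what the vector table could list, each depth-scaled pileup was set beside the lowest vector pileup listed over a background within 10%. Since these members were chosen for a listed APOC2 peak, their pileups were bound to be high, and the values describe single genes only. The ratio ran from 1.04 at EED to 3.21 at SMYD2. At SMYD2 it was 54.0 fragments (Poisson interval 39.4 to 72.3) against 16.8, and at KDM1B 38.4 (26.3 to 54.2) against 14.8. At EED, KMT2D and KMT2E the vector limit lay within the counting interval. The APOC2 signals at EED, KMT2D and KMT2E were thus close to what the vector table could list. Members absent from the vector table are not shown to lack PHF8 there, since the table lists no signal below its threshold.

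Of the 29 APOC2 boundary peaks at members, 25 lay at the annotated start, 2 at the end and 2 at NSD3, whose strand was not available here. Of the 9 vector peaks, 8 lay at the start and 1 at the end. At the start, the midpoint was inside the gene for 19 of the 25 APOC2 and 6 of the 8 vector peaks. Over all 25 and all 8, with positions before the start counted as negative, the median midpoint was 154 bp and 131 bp after the start. The start itself was covered by 5 of the 25 APOC2 and 3 of the 8 vector peaks. Another gene had a boundary within 1 kb of 18 of the 29 APOC2 and 4 of the 9 vector peaks. A peak there cannot be given to the member alone. Among all boundary peaks of protein-coding genes, 42.3% in the APOC2 and 43.5% in the vector library were near more than 1 gene.

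**Figure D4:**
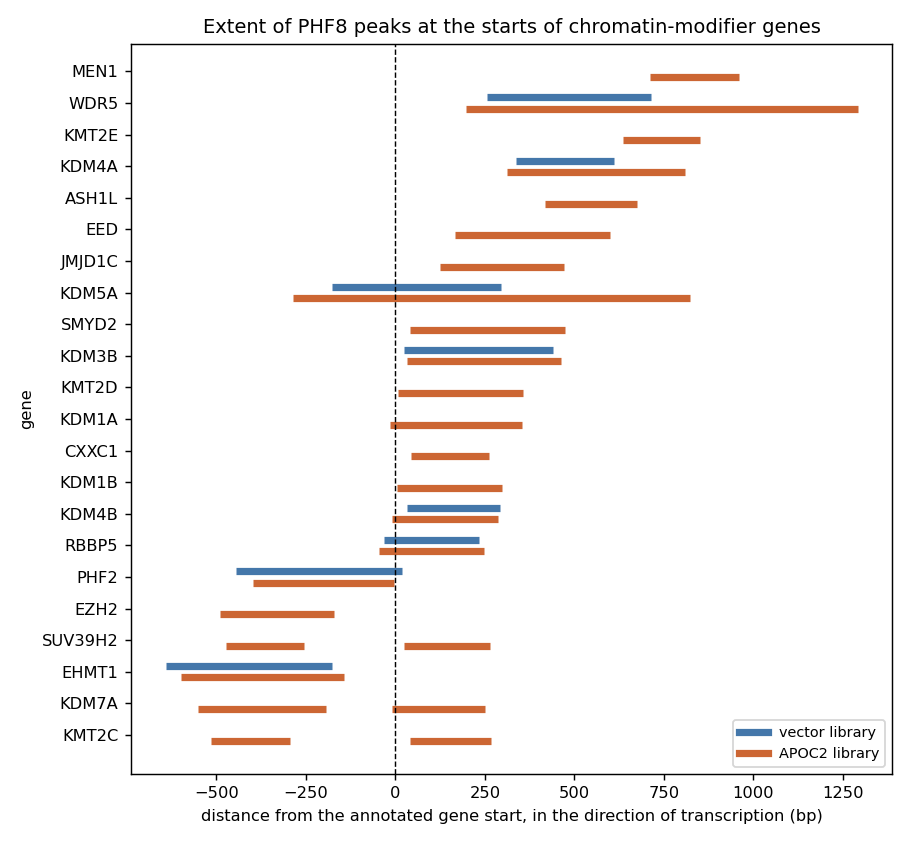
Extent of each peak at an annotated member start (horizontal axis, bp in the direction of transcription, 0 at the start) in the vector (blue) and APOC2 (orange) libraries. Of the 25 APOC2 peaks, 19 have their midpoint after the start, and those of PHF2, EZH2 and EHMT1 and the upstream peaks of KMT2C, SUV39H2 and KDM7A lie before it.

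Promoter composition was described from the RefSeq windows of 300 bases (250 before and 50 after the start) that were available for 52 members; JMJD6, RIOX1, RIOX2, SETD1B, NSD3, ASH2L, DOT1L and DPY30 were not among them. These windows are placed by the start and not by the peaks, whose APOC2 midpoints at starts lay at a median of 154 bp after it. Of the 52 promoters, 49 (94.2%) had a CpG ratio of at least 0.6, against 66.1% of 15100 autosomal protein-coding genes. The median CpG ratio was 0.99 for the 22 members with an APOC2 peak and 0.91 for the 30 members with no boundary peak, with overlapping ranges (0.30 to 1.26 and 0.34 to 1.26). The median number of CpGs was 35.5 and 28.5. Over all genes the median ratios were 0.88 with an APOC2 peak and 0.69 without any boundary peak. The gap between these medians was smaller among the members than among all genes, a difference that was not tested. The low value of an occupied member, 0.30, belonged to the outermost of several listed starts of WDR5, which the peaks did not cover.

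**Figure D5:**
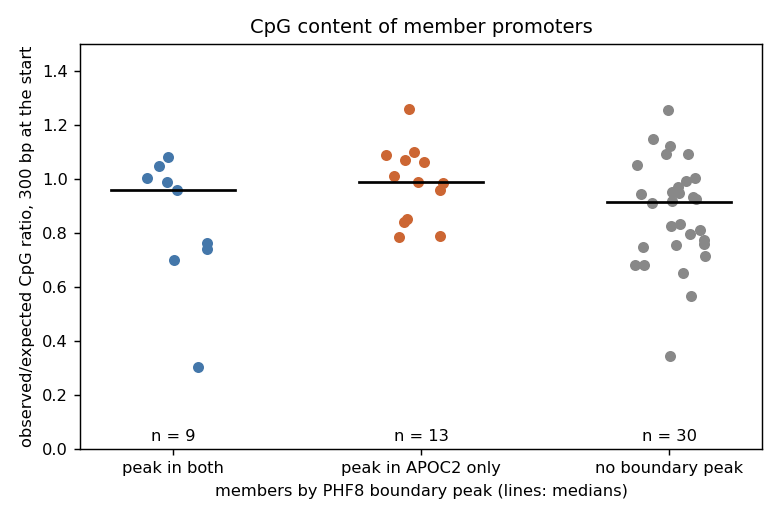
Observed-to-expected CpG ratio (vertical axis) of the 300-base window at the start of 52 members, by boundary peak in both libraries, in the APOC2 library alone, or in neither; lines are medians. The 3 sets overlap over most of their range.

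Short sequences were searched on both strands of the same windows; matches of different motifs may overlap, and a match is only a match of letters. The SP1-type box GGGCGG was in 16 of 22 promoters of members with an APOC2 peak and in 23 of 30 without a boundary peak, and in 58.7% of all promoters. The ETS core CCGGAA was in 5 of 22 and 5 of 30, and in 22.9% of all. CCAAT was in 8 of 22 and 12 of 30 (5443 of 15100 over all), the E-box CACGTG in 3 and 5 (8.71%), AAGATGGC, part of the YY1 motif, in 2 and 4 (3.87%), GCATGCGC, part of the NRF1 motif, in 0 and 2 (4.19%), and the CRE TGACGTCA in 1 and 0 (2.62%).

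Other chromatin enzymes were counted by the same rule. Of 9 arginine methyltransferase genes, 1 had a boundary peak with vector and 4 with APOC2. PRMT6 had 7.03 with vector and 5.68 with APOC2, and PRMT7 had 7.60 in the APOC2 library alone. Of 12 histone acetyltransferase genes 1 and 4 were occupied, with EP300, the p300 coactivator, at 4.32 and 4.87. Of 18 deacetylase and sirtuin genes 2 and 8 were occupied; HDAC4 had 9.40 and 10.7, and HDAC3, the enzyme of the NCoR complex, 6.42 and 9.50. Of 18 genes of Polycomb repressive complex 1, which binds H3K27-methylated chromatin, 0 and 5 were occupied. Of 12 genes of DNA methylation and its removal or reading, 2 and 4 were occupied. Among them MBD1 was counted on the peaks at the end of CXXC1, which also count for that member. The vector shares of these lists ran from 0% to 16.7%, beside 15.0% of the lysine methylation genes, 6.19% of all protein-coding genes and 8.07% of those with a CpG-rich promoter. The APOC2 shares of these lists ran from 27.8% to 44.4%, beside 38.3% of the lysine methylation genes, 24.7% of all protein-coding genes and 35.0% of those with a CpG-rich promoter. The Polycomb share, 27.8%, was near that of all genes, and the acetyltransferase and DNA methylation shares, 33.3% each, were below that of CpG-rich genes.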

How the data were processed

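The data were 2 deposited peak tables, 1 per library, of PHF8 ChIP-seq in RKO cells. Per the submitters' processing notes, Bowtie2 2.2.9, MACS2 2.0, HOMER and hg38 were used; the control library, the thresholds and the handling of duplicate reads are not given in the sources used here. Per the file headers, the authors' tables hold a fragment pileup signal at each summit and a fold enrichment ratio over local background. The deposited columns of -log10 p and -log10 q had lost their names and were identified by place and value. Positions count from 1.

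Members and lists were chosen with earlier results of these data known. Gene positions, 52 members' strands and promoter sequences came from RefSeq (GRCh38.p14; 60 of 60 members matched by symbol). All vector pileups lay within 0.01 of a multiple of 0.98954. Of the APOC2 backgrounds between 1.5 and 12, 65.4% lay within 0.01 of a multiple of 0.833. Pileups were put on the control's scale by dividing APOC2 pileups by 0.833 (depth-scaled pileup). A control common to both tables would put the APOC2 depth at 0.824 of the vector depth; absolute depth is unknown. Peaks overlapping by at least 1 bp counted as shared. With 1 library per condition there was no test between conditions. Intervals (95%) are exact Poisson or exact conditional binomial intervals of the pileup and cover counting error only. Python 3.11.15, pandas 2.3.3 and scipy 1.17.1 were used, and the assignment was tested on simulated data. Members were named when they had a boundary peak in both libraries, ranked highest by enrichment or by change, had a peak inside the gene, or had no peak. Alternatives covered peak thresholds, the window, the peak position, equal peak numbers, gene starts, chromosomes 8 and 9, and the measure. Those on listed transcript starts, on detection in the vector table and on CpG-rich genes were chosen after seeing the data.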

Additional observations from a re-analysis of the deposited data

How the results depend on the processing

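Each count of occupied members was recomputed under 9 settings and the median ratio under 12, with a count regarded as moved past 1.5 times. With peaks of a fold enrichment of at least 5, the vector count was 5, the APOC2 count 12 (5 demethylases and 7 methyltransferases and subunits) and the count in the APOC2 library alone 7. When the peak had to overlap the boundary base, these were 3, 6 (4 and 2) and 4. Taking the same number of best-ranked peaks per table, the APOC2 count was 13 (5 and 8) and the count in the APOC2 library alone 7. The APOC2 count exceeded the vector count in each of these settings. No share of all genes was taken under the changed settings, so these counts do not compare members with all genes. A 3 kb window added SETD2 and DPY30, a q-value of at most 0.001 took out EED and, in the vector library, EHMT1, and the summit in place of the midpoint changed no member. With gene starts only, 52 members could be used. The median log2 ratio of fold enrichment stayed between 0.33 and 0.45 in all 12 settings, over 2 to 9 pairs. Leaving out replicates was not possible with 1 library per condition. The cause of these changes was not tested.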

Other observations

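Some members without a boundary peak had a peak at a transcript start inside the gene. PRDM2 is known to make a long product with the PR domain and, from an internal start, a short product without it. No boundary peak was found at PRDM2, but the APOC2 library had a peak of 5.38 (chromosome 1, 13748993 to 13749230) with its midpoint at -304 bp from an internal listed start, 48923 bp after the outermost one. SETD3 had an APOC2 peak of 3.79 (chromosome 14, 99480516 to 99480795) with its midpoint 204 bp after a listed start, in a region shared with CCNK. The SETD2 peaks lay 601 bp (vector) and 610 bp (APOC2) from a listed start. Counting peaks within 1 kb of any listed start, a choice made after seeing the data, gave 9 vector and 25 APOC2 members. PRDM2, SETD2 and SETD3 were gained and NSD3, which has no listed start here, was lost with APOC2, and SETD2 was gained and CXXC1 lost with vector.

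Relatives outside the list were also counted. Of 19 other genes of the lysine demethylase and methyltransferase families, including those on the X chromosome, 2 (10.5%, vector) and 8 (42.1%, APOC2) had a boundary peak. The shares were 6.19% and 24.7% over all autosomal protein-coding genes, and 8.07% and 35.0% over those with a CpG-rich promoter. KDM5C, an X-linked H3K4 eraser, had fold enrichments of 3.41 (vector) and 2.78 (APOC2), lower with APOC2, while KDM6A, an X-linked H3K27 eraser, had 4.85 in the APOC2 library alone. SMYD4 had the highest value of the 19 genes, 10.1, in the APOC2 library alone. PHF8 itself and SUV39H1 had no boundary peak.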
